A study of Danio rerio with 15 samples.

Results

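The genes of the eukaryotic translation initiation factors were followed in whole zebrafish embryos from 3 to 4.5 hours post fertilization (hpf). Members were all genes whose symbol begins with eif and a digit from 1 to 6 and whose mean over the 15 libraries was at least 1 FPKM, a fragment count scaled to transcript length and to the mapped total. The pattern matched 65 of the 23726 genes in the table, and 64 passed the mean. The gene left out was eif3bb, a second copy of an eIF3 subunit gene, with a mean of 0.0229 FPKM. The member nearest to the limit was eif2ak2, with a mean of 1.12 FPKM. By the mean alone, 13493 genes of the table passed and were tested.

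Initiation factors bring the small ribosomal subunit, the initiator tRNA and the mRNA together at a start codon. The cap of the mRNA is held by eIF4E, which joins the scaffold eIF4G and the helicase eIF4A, while eIF3, eIF1, eIF1A and the ternary complex of eIF2, GTP and initiator tRNA sit on the small subunit. Brakes on the pathway include the eIF4E-binding proteins, which block eIF4E from eIF4G, and the kinases that phosphorylate the alpha subunit of eIF2. Early fish embryos depend on translation of mRNA supplied by the mother until their own genome is transcribed.

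Poly(A) RNA of dechorionated embryos was sequenced at 3, 4 and 4.5 hpf. The genotypes were wildtype, MZnup133 (labelled a nup133 knockout), Tgnup133 (labelled transgenic overexpression of nup133) and Melys (labelled an elys knockout). Both target genes encode nuclear pore proteins. Each stage had 1 library of each line and 2 of wildtype, of which 1 (nup133 set) served Tgnup133 and MZnup133 and the other (elys set) served Melys. No source used here names the promoter of the transgene, the number of embryos per library or the clutch of origin, so p-values measure only the spread between these libraries.

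The FPKM sum was 508714.6 to 575118.3 per library, and read depth itself was not known. The transcript of nup133 was at 0.431, 0 and 0.208 FPKM in MZnup133 and 12.6, 13.1 and 11.7 FPKM in the matched wildtype at 3, 4 and 4.5 hpf. In Tgnup133 nup133 was at 17.98, 18.4 and 16.4 FPKM and differed by 0.46 ± 0.21 (log2, SE; limma adjusted p = 0.34), and in Melys ahctf1, the gene of Elys, differed by -0.07 ± 0.18 (adjusted p = 0.846), so these tests on RNA did not check those 2 labels. The summed level of the blastomere markers pou5f3, nanog and sox19b was 1764 to 2363 FPKM in all libraries, and of 9 markers of muscle, blood, brain, liver and pancreas the 5 in the table summed to at most 15.6 FPKM. Mitochondrially encoded transcripts held 7.29% to 10.2% of the FPKM sum in wildtype. They held 7.39% to 8.79% in the Tgnup133 libraries, 5.10% to 6.53% in those of MZnup133 and 4.76% to 5.31% in those of Melys. In wildtype, 5 germ plasm markers summed to 793 to 883 FPKM at 3 hpf and 308 to 330.4 FPKM at 4.5 hpf. Over the same stages their sum went from 589 to 418 FPKM in MZnup133, 681 to 362 FPKM in Melys and 750.1 to 247 FPKM in Tgnup133. In whole embryos, fewer cells of a type and less RNA per cell cannot be told apart.

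The members were well expressed. Their median mean level was 40.5 FPKM, against 12.03 FPKM over all 13493 tested genes, and 57 of 64 were at 1 FPKM or more in every library. Together they held between 0.979% of the FPKM sum, in Melys at 3 hpf, and 1.29%, in Tgnup133 at 4.5 hpf. In all 5 series of libraries the share was lowest at 3 hpf and highest at 4.5 hpf. The highest mean was that of eif1b, which encodes a form of the start codon scanning factor eIF1, at 832 FPKM. Next came the helicase gene eif4a1a at 428 FPKM, eif5a at 377 FPKM, eif1 at 348 FPKM and eif4ebp3l, a gene of an eIF4E-binding protein, at 286 FPKM. At the other end, 9 members had a mean under 10 FPKM, among them the eIF2B genes eif2b1, eif2b2 and eif2b3 and the kinase genes eif2ak2 and eif2ak3. The 2 wildtype libraries of a stage differed by a median of 0.18, 0.20 and 0.23 on the log2(FPKM + 1) scale at 3, 4 and 4.5 hpf. The widest gaps were 1.72 for eif1axb at 3 hpf, 2.004 for eif3hb at 4 hpf and 1.35 for eif4a2 at 4.5 hpf, so values of these 3 genes rest on less agreement.

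**Figure D1:**
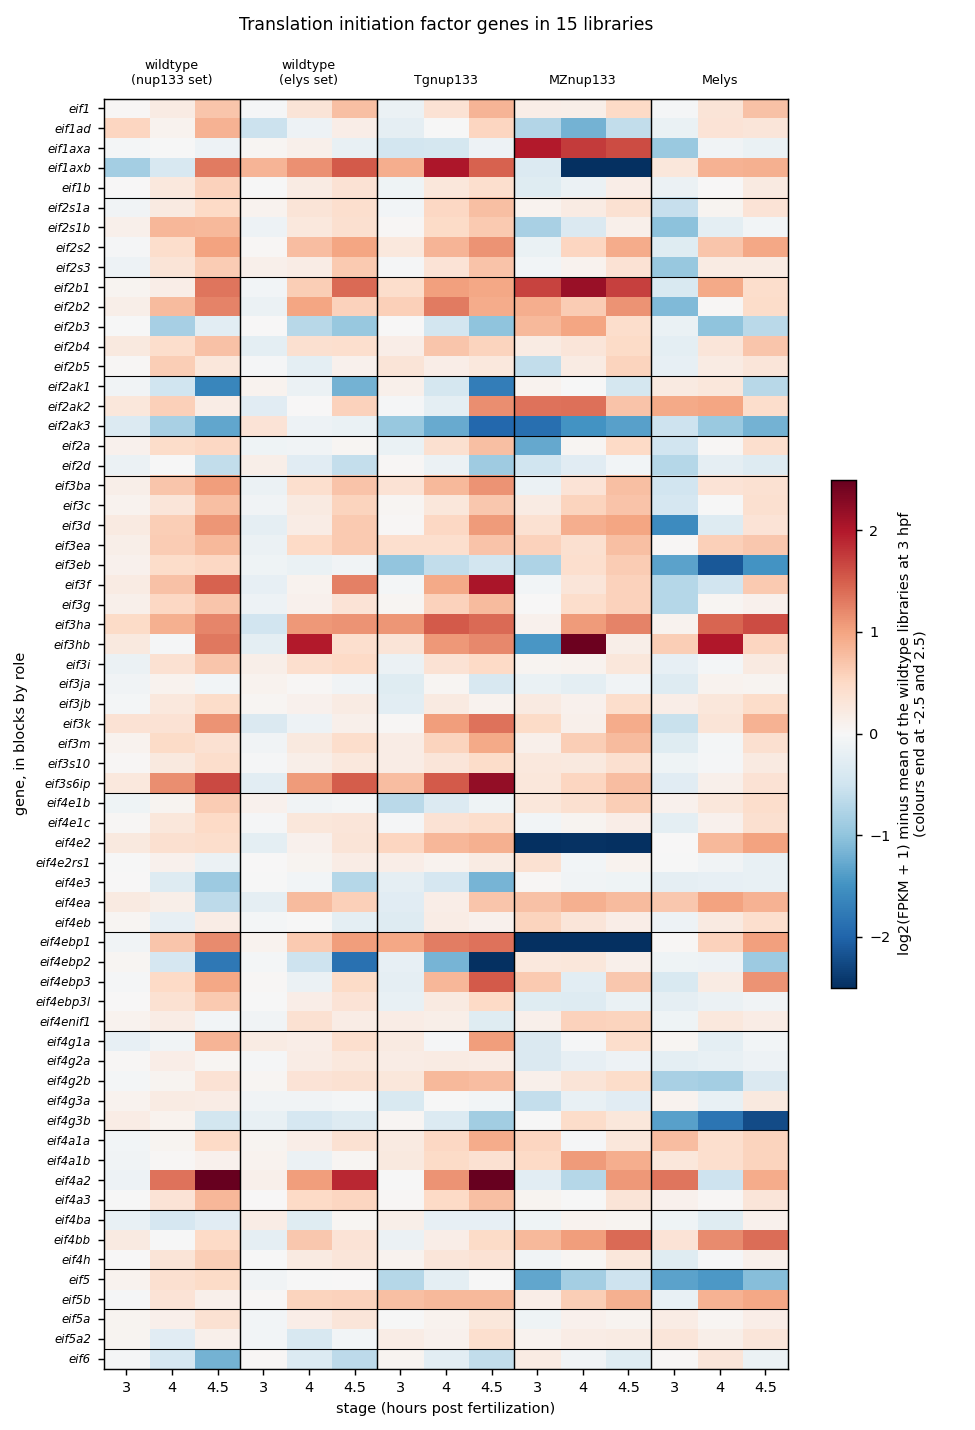
Each row is 1 of the 64 genes in blocks by role, each column is 1 library, and the colour is log2(FPKM + 1) minus the mean of the 2 wildtype libraries at 3 hpf. Most rows darken to red from 3 to 4.5 hpf in wildtype, while eif4ebp2, eif2ak1, eif6 and eif4e3 turn blue; eif4ebp1 and eif4e2 are at the blue end in all 3 MZnup133 libraries.

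In wildtype embryos 29 of the 64 initiation factor genes were higher and 4 lower at 4.5 than at 3 hpf. In limma on log2(FPKM + 1), these 29 rose and 4 fell at an adjusted p under 0.05. Of all tested genes, 14.1% rose and 22.8% fell, 37.0% in all. The members' median difference was 0.41 and that of all genes was -0.16 (log2), and 51 members had a positive difference. The fallers were eif4ebp2, eif2ak1, eif6 and eif4e3, which encode an eIF4E-binding protein, an eIF2-alpha kinase, a factor that keeps the ribosomal subunits apart and a cap-binding protein of the eIF4E family.

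The count of 33 was lower without the filter and in each fit that left out a wildtype library. Without the filter on low values it was 13. It was 5 when the nup133 set lacked its 3 hpf wildtype library, 8 without the 4.5 hpf one of that set, 14 without the 3 hpf one of the elys set, 16 without either library at 4 hpf and 24 without the 4.5 hpf one of the elys set. The genes past the threshold in each of these 6 fits were eif4ebp2, eif3s6ip, eif3ba and eif1. Fits that left out a library had fewer residual degrees of freedom, so a lost call need not mean a smaller difference. The count also fell without a library of 4 hpf, a stage outside this comparison. Whether the other losses came from the library left out or from the lost degrees of freedom was not tested. The fit without the filter covered 22874 genes in place of 13493, so its adjustment differed as well. Under median-ratio scaling, where the all-gene median was 0.07 in place of -0.16, 37 members rose and 4 fell. There 5372 of the 13493 tested genes passed. Under equal FPKM sums, with an all-gene median of -0.24, 19 members rose and 4 fell, and 5002 of all tested genes passed. The split of all genes by direction was not counted under these scalings. The markers of the enveloping layer, an outer epithelium that forms over these hours, went from 2.86 to 7.20 FPKM in sum at 3 hpf to 451 to 584 FPKM at 4.5 hpf in wildtype, and those of the yolk syncytial layer from 2.82 to 3.18 FPKM, with 3 of 4 markers at 0, to 124 to 140.02 FPKM. Their part in the members' differences was not tested.

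**Figure D2:**
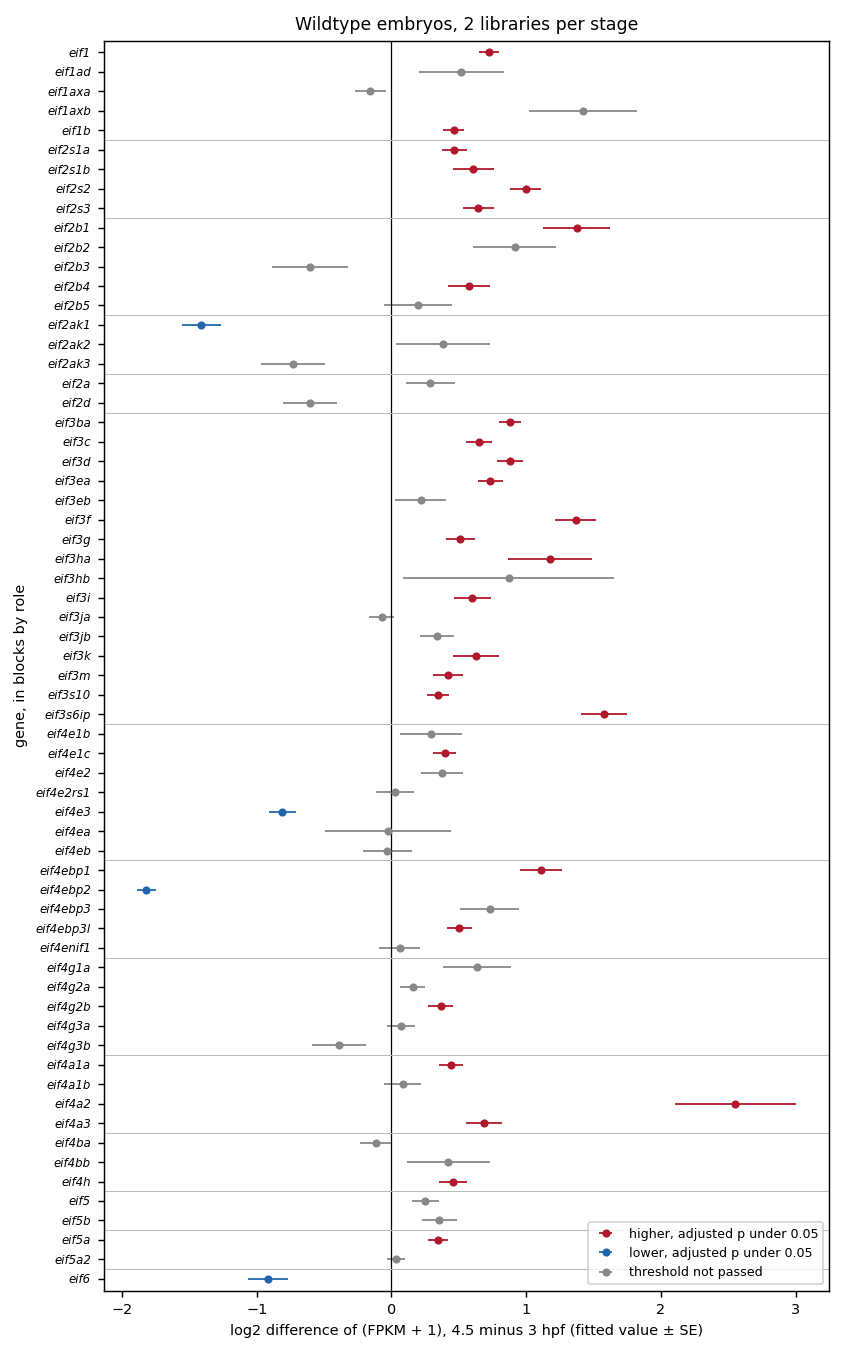
Each point is 1 gene's fitted difference between 4.5 and 3 hpf in wildtype on the log2(FPKM + 1) scale, with bars of ± SE and 2 libraries per stage. Points in red or blue passed an adjusted p of 0.05; the 12 red points of the eIF3 block lie between 0.34 and 1.58, and eif4ebp2 lies at -1.82.

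The subunits of eIF2, which carries the initiator tRNA, passed the threshold upward in 4 of 4 genes. Among the 6 fits that each left out 1 wildtype library, eif2s2 passed in 4, eif2s3 in 3, eif2s1a in 1 and eif2s1b in 0 (adjusted p = 0.0927 to 0.217), and none of the 4 passed without the 3 or the 4.5 hpf library of the nup133 set. The beta subunit gene eif2s2 was at 51.7 and 53.6 FPKM at 3 hpf (nup133 set and elys set), 71.9 and 90.7 FPKM at 4 hpf, and 106 FPKM in both libraries at 4.5 hpf. Its difference from 3 to 4.5 hpf was 0.996 ± 0.12 (log2, SE; adjusted p = 0.00686), and both later libraries lay above both earlier ones. The most abundant subunit gene, eif2s1a for the alpha subunit, went from 151 and 170.5 FPKM to 228 and 215 FPKM, a difference of 0.47 ± 0.09 (adjusted p = 0.0232). Of the subunits of eIF2B, which recharges eIF2 with GTP, 2 of 5 rose. The gene eif2b1, for the regulatory alpha subunit, was at 2.74 and 2.44 FPKM at 3 hpf and 7.998 and 8.59 FPKM at 4.5 hpf (1.37 ± 0.25, adjusted p = 0.0187), and eif2b4 differed by 0.58 ± 0.16 (adjusted p = 0.0487). The eif2b1 call was lost without either library of 3 or 4.5 hpf, with adjusted p up to 0.112, and eif2b4 passed in 0 of the 6 fits (adjusted p = 0.083 to 0.21).

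Of the 3 eIF2-alpha kinase genes only 1 passed, and it went the other way. The gene of the heme-regulated kinase, eif2ak1, was at 25.6 and 28.7 FPKM at 3 hpf, 19.0 and 24.4 FPKM at 4 hpf, and 8.04 and 11.3 FPKM at 4.5 hpf. It fell by 1.41 ± 0.15 on the log2 scale (adjusted p = 0.0053), with most of the drop after 4 hpf, where it fell by 1.09 ± 0.15 (adjusted p = 0.0459). The call after 4 hpf was lost when any single wildtype library was left out, with differences of -1.19 to -0.995. In the same fits the difference from 3 to 4.5 hpf was -1.53 to -1.29. The gene of the endoplasmic reticulum kinase PERK, eif2ak3, differed by -0.73 ± 0.24 (adjusted p = 0.0739), and that of the double-stranded RNA kinase PKR, eif2ak2, by 0.38 ± 0.35 (adjusted p = 0.436). Neither of eif2a and eif2d, which encode factors apart from the eIF2 complex, passed, and eif2d differed by -0.60 ± 0.20 (adjusted p = 0.0815).

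Of the 16 eIF3 genes, whose products form the large scaffold on the small subunit, 12 rose and none fell, with a median difference of 0.64; under equal FPKM sums 8 rose, and under median-ratio scaling 13. With 1 wildtype library left out, 3 and 5 rose without the 3 hpf library of the nup133 and of the elys set, 6 without either one of 4 hpf, and 4 and 7 without the 4.5 hpf ones. Over these 6 fits eif3s6ip and eif3ba passed in 6, eif3f and eif3d in 5, eif3ea and eif3c in 3, eif3i in 2 and eif3ha in 1, while eif3s10, eif3k, eif3g and eif3m passed in 0. The steepest was eif3s6ip, an older name for the gene of the l subunit, at 14.6 and 9.86 FPKM at 3 hpf, 28.2 and 26.4 FPKM at 4 hpf, and 39.9 and 36.0 FPKM at 4.5 hpf. It rose by 1.58 ± 0.17 on the log2 scale (adjusted p = 0.00564) and had risen by 1.12 ± 0.17 at 4 hpf (adjusted p = 0.0368). The f subunit gene eif3f was at 28.9 and 21.7 FPKM at 3 hpf, 42.5 and 26.6 FPKM at 4 hpf, and 70.9 and 61.7 FPKM at 4.5 hpf. Its difference was 0.41 ± 0.15 from 3 to 4 hpf (adjusted p = 0.193) and 0.96 ± 0.15 from 4 to 4.5 hpf (adjusted p = 0.0492). The call of the later step was lost when any single wildtype library was left out, and the 2 steps were not tested against each other. The h subunit gene eif3ha went from 18.3 and 8.91 FPKM to 31.2 and 29.3 FPKM, a difference of 1.17 ± 0.31 (adjusted p = 0.047), and lost its call without either 4 hpf or 4.5 hpf library or without the 3 hpf one of the elys set (adjusted p up to 0.206). The most abundant eIF3 gene, eif3i, went from 99.4 and 121 FPKM to 179 and 155 FPKM (0.60 ± 0.14, adjusted p = 0.0318). The eIF3 genes that did not pass were eif3ja and eif3jb, for the loosely bound j subunit, and the second copies eif3eb and eif3hb. Whether reads were split between copies such as eif3ea and eif3eb was not tested.

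Among the helicases, eif4a1a, eif4a2 and eif4a3 rose and eif4a1b did not pass. The highest difference of any member was that of eif4a2, which was at 1.46 and 1.97 FPKM at 3 hpf, 5.90 and 4.59 FPKM at 4 hpf, and 24.4 and 8.94 FPKM at 4.5 hpf. It rose by 2.55 ± 0.45 on the log2 scale (adjusted p = 0.0171), and the 4.5 hpf libraries of both sets lay above the earlier ones although they were far apart. The call was lost without either library at 4 hpf or without the 3 or 4.5 hpf library of the nup133 set, with adjusted p up to 0.0983. The abundant helicase gene eif4a1a went from 312 and 346 FPKM to 466 and 429 FPKM (0.44 ± 0.09, adjusted p = 0.0246). The cofactor gene eif4h, whose product stimulates eIF4A, went from 121 and 119 FPKM to 185 and 147 FPKM, and passed as well (0.46 ± 0.10), while eif4ba and eif4bb did not. Of the 5 eIF4G scaffold genes only eif4g2b passed (0.36 ± 0.09, adjusted p = 0.0397); it encodes a form of DAP5, an eIF4G relative without an eIF4E site. With 1 wildtype library left out, eif4a3 passed in 3 of 6 fits, eif4a1a and eif4h in 1 each and eif4g2b in 0 (adjusted p up to 0.132, 0.149, 0.172 and 0.174).

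Cap-binding genes split. The gene eif4e1c, with the highest level among them, was at 125 and 119 FPKM at 3 hpf, 148 FPKM in both libraries at 4 hpf, and 173 and 149.9 FPKM at 4.5 hpf (0.40 ± 0.09, adjusted p = 0.0282). In contrast eif4e3 was at 91.2 FPKM in both libraries at 3 hpf, 72.5 and 86.4 FPKM at 4 hpf, and 48.3 and 55.1 FPKM at 4.5 hpf, and fell by 0.81 ± 0.10 (adjusted p = 0.00788). The call of eif4e3 was lost without the 3 or the 4.5 hpf library of the nup133 set (adjusted p = 0.0609 and 0.0621), and eif4e1c passed in 1 of the 6 leave-out fits (adjusted p up to 0.149). The oocyte form eif4e1b was at 67.7 and 77.9 FPKM at 3 hpf and 113 and 70.0 FPKM at 4.5 hpf, so its libraries overlapped (0.29 ± 0.23, adjusted p = 0.367). The other 4, eif4ea, eif4eb, eif4e2 and eif4e2rs1, had differences from -0.03 to 0.38 and did not pass.

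The genes of the eIF4E-binding proteins moved in different directions. The level of eif4ebp2 was 207 and 193 FPKM at 3 hpf, 148 and 138 FPKM at 4 hpf, and 57.2 and 54.2 FPKM at 4.5 hpf. It fell by 1.82 ± 0.07 on the log2 scale (adjusted p = 0.00115), by 0.48 ± 0.07 up to 4 hpf and by 1.35 ± 0.07 after it (adjusted p = 0.0365 and 0.0459), and the libraries of the stages did not overlap. Over the same time eif4ebp1 went from 20.0 and 22.9 FPKM to 49.8 and 45.2 FPKM (1.11 ± 0.16, adjusted p = 0.0103). The most abundant of them, eif4ebp3l, went from 271 and 267 FPKM through 349 and 302 FPKM to 427 and 342 FPKM (0.50 ± 0.10, adjusted p = 0.0203). The lower eif4ebp3 was at 14.1 and 14.6 FPKM at 3 hpf and 29.1 and 20.4 FPKM at 4.5 hpf and did not pass (0.73 ± 0.22, adjusted p = 0.0618). The calls of eif4ebp1 and eif4ebp3l were lost without the 3 hpf or without the 4.5 hpf wildtype library of the nup133 set. The call of eif4ebp3l was also lost without either library at 4 hpf (adjusted p = 0.0684 for both).

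The sum of these 4 genes stayed within a narrow range while its makeup shifted. It was 512 and 497 FPKM at 3 hpf, 553 and 487 FPKM at 4 hpf, and 563 and 462 FPKM at 4.5 hpf, so the 2 sets moved in opposite directions. The share of eif4ebp2 in that sum was 40.4% and 38.7% at 3 hpf, 26.8% and 28.4% at 4 hpf, and 10.2% and 11.7% at 4.5 hpf. The share of eif4ebp3l went from 53.0% and 53.7% to 75.8% and 74.1%; shares were not tested. The gene of the eIF4E transporter, eif4enif1, a partner of eIF4E in stored mRNA particles, ranged from 27.7 to 38.6 FPKM over the 6 wildtype libraries (0.06 ± 0.15, adjusted p = 0.788).

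**Figure D3:**
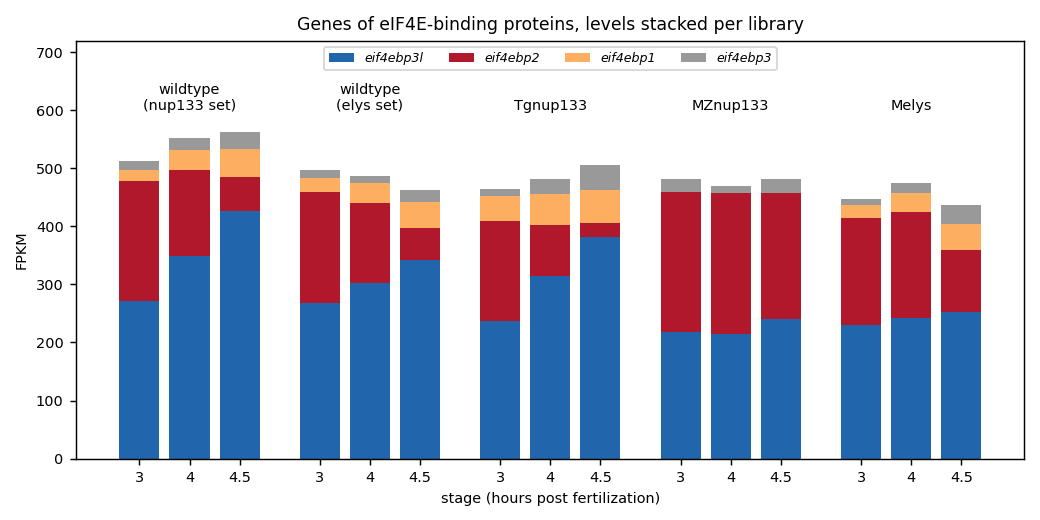
Stacked bars give the FPKM of the 4 genes of eIF4E-binding proteins in each library by stage. The bar of eif4ebp2 shrinks in wildtype from 207 and 193 FPKM to 57.2 and 54.2 FPKM, shrinks further in Tgnup133, is still 217 FPKM at 4.5 hpf in MZnup133, and no bar of eif4ebp1 is seen in MZnup133.

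Of the factors that act at start codon choice and subunit joining, eif1 rose from 276 and 267 FPKM at 3 hpf to 437 and 460.0 FPKM at 4.5 hpf (0.72 ± 0.08, adjusted p = 0.00537). The related eif1b went from 757 and 754 FPKM to 1122 and 966 FPKM (0.46 ± 0.08, adjusted p = 0.0155). The gene of eIF5, which triggers GTP hydrolysis by eIF2, and that of eIF5B, the GTPase of subunit joining, did not pass. The elongation and initiation factor gene eif5a was at 359.9 and 331 FPKM at 3 hpf and 452 and 425 FPKM at 4.5 hpf (0.34 ± 0.07, adjusted p = 0.027), while its copy eif5a2 was lowest at 4 hpf, with 201 and 185 FPKM between 257 and 233 FPKM at 3 hpf and 268 and 235 FPKM at 4.5 hpf (3 to 4.5 hpf 0.03 ± 0.07, adjusted p = 0.737). In contrast eif6, for the factor that holds the large subunit apart, was at 145 and 149 FPKM at 3 hpf, 109.9 and 116 FPKM at 4 hpf, and 64.1 and 93.5 FPKM at 4.5 hpf. It fell by 0.92 ± 0.15 (adjusted p = 0.0142), a call that was lost without either 3 hpf library (adjusted p = 0.097 and 0.0514). Of the other calls here, eif1 passed in 6 of 6 leave-out fits, eif1b in 1 and eif5a in 0 (adjusted p up to 0.113 and 0.14).

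Over the shorter steps few members passed. From 3 to 4 hpf, eif3ba, eif3ea and eif3s6ip rose and eif4ebp2 fell, 4 of 64 against 6.94% of all genes (3.61% higher, 3.34% lower). From 4 to 4.5 hpf, eif3f rose and eif4ebp2 and eif2ak1 fell, 3 of 64 against 5.0% of all genes (1.76% higher, 3.23% lower). Both shares were close to the background. These calls were lost when any 1 of the 6 wildtype libraries was left out, in fits with fewer residual degrees of freedom. At an unadjusted p under 0.05 the counts were 26 and 20, and the share of all genes at that level was not counted.

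In MZnup133 embryos, 6 members were higher and 10 lower than in the matched wildtype libraries, with the 3 stages taken as repeats. Of all genes, 13.7% were higher and 8.32% lower, 22.0% in all, so the members' 25.0% was near the background. Their median was -0.05, against 0.15 for all genes (log2), and it was 0.01 under equal FPKM sums. Under median-ratio scaling the members' median was -0.24 and the all-gene median -0.02. There 5 members were higher and 15 lower, and 3004 of the 13493 tested genes passed. The lower genes were eif4ebp1, eif4e2, eif1ad, eif5, eif2s1b, eif4ebp3l, eif4g3a, eif1b, eif4g2a and eif3ba, and the higher ones eif1axa, eif2b1, eif2b3, eif4bb, eif4a1b and eif6. The count was 22 without the 3 hpf libraries, 4 without those of 4 hpf and 6 without those of 4.5 hpf. In each of these fits, eif4ebp1, eif4e2, eif1axa and eif5 passed. In sum, the enveloping layer markers were at 1.36, 44.1 and 210.4 FPKM in MZnup133 and the yolk syncytial layer markers at 0, 9.96 and 21.0 FPKM, below the wildtype ranges at each stage; their part in the members' differences was not tested.

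**Figure D4:**
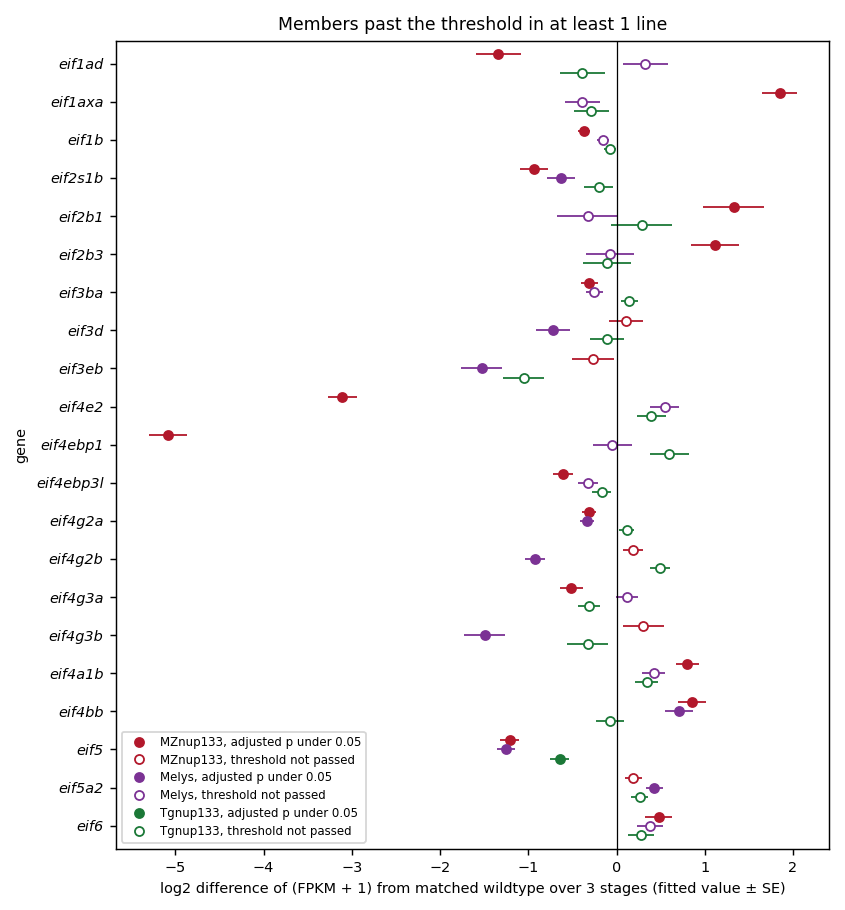
For the 21 genes past the threshold in at least 1 line, points give the fitted difference from matched wildtype over 3 stages on the log2(FPKM + 1) scale with bars of ± SE, by line; filled points passed an adjusted p of 0.05. The MZnup133 points of eif4ebp1 and eif4e2 lie farthest to the left and that of eif1axa farthest to the right, and eif5 is filled for all 3 lines.

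The transcript of eif4ebp1 was listed at 0 in all 3 MZnup133 libraries. The matched wildtype had 20.0, 35.5 and 49.8 FPKM at 3, 4 and 4.5 hpf, Tgnup133 had 42.7, 53.1 and 56.3 FPKM and Melys had 21.9, 32.5 and 44.7 FPKM. No other library was at 0 for this gene or for any other member, and limma's adjusted p was 2.36e-06. Since a listed 0 can be an estimate that failed, no fold is given. The paralog eif4ebp3l was at 219, 215 and 240.5 FPKM in MZnup133, below each of the 6 wildtype libraries, and fell by 0.61 ± 0.11 against the matched ones (adjusted p = 0.00575). Leaving out the 4 or the 4.5 hpf libraries ended that call (adjusted p = 0.155 and 0.0934). In Melys eif4ebp3l was at 230.5, 242.8 and 253.1 FPKM, also below each of the 6 wildtype libraries, and did not pass over 3 stages.

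In the same embryos eif4ebp2 was at 240.1, 242 and 217 FPKM. The line was above all wildtype libraries of the same stage, and the gap widened with stage. Over 3 stages the difference did not pass (0.94 ± 0.39, adjusted p = 0.106), in a fit where a gap that changes with stage counts as spread. In the fit of single stages the difference was 0.71 ± 0.09 at 4 hpf and 1.90 ± 0.09 at 4.5 hpf (adjusted p = 0.0279 and 0.0123). The difference between the 3 to 4.5 hpf changes in MZnup133 and wildtype was 1.68 ± 0.12 with an adjusted p of 0.0689. As the sum of the 4 genes was 482, 469 and 481 FPKM, the share of eif4ebp2 was 49.8%, 51.7% and 45.1%. The wildtype fallers, eif4ebp2 among them, were called for low wildtype values at 4.5 hpf, which by itself favours a line above wildtype there. At that stage in MZnup133, eif2ak1 was at 19.8 FPKM (1.14 ± 0.19 above wildtype, adjusted p = 0.0296) and eif4e3 at 84.7 FPKM (0.78 ± 0.13, adjusted p = 0.0306). Both calls were lost when any single wildtype library was left out, with differences of 1.01 to 1.2 and 0.735 to 0.813. Neither gene passed over 3 stages or in the test of the 3 to 4.5 hpf change against wildtype. The last faller, eif6, was at 169, 139 and 119 FPKM over the stages and did not pass at 4.5 hpf. Its difference over 3 stages was 0.48 ± 0.15 (adjusted p = 0.0488), which passed in 1 of the 3 fits that left out a stage (adjusted p up to 0.35). Under median-ratio scaling it was not past the threshold (adjusted p = 0.164).

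A further strong difference concerned eif4e2, which encodes a cap-binding protein that does not join eIF4G and acts as a repressor in mammals. It was at 1.66, 3.30 and 2.82 FPKM in MZnup133 and 27.0, 30.1 and 31.1 FPKM in the matched wildtype. The line fell by 3.11 ± 0.16 on the log2(FPKM + 1) scale (adjusted p = 6.58e-06), below every other library. The related eif4e2rs1 was at 42.9, 31.1 and 34.9 FPKM in MZnup133 and 32.6, 35.1 and 29.6 FPKM in the matched wildtype (0.15 ± 0.14, adjusted p = 0.46). The sum of both was 44.6, 34.4 and 37.7 FPKM against 59.6, 65.3 and 60.6 FPKM. Whether reads were split between the copies was not tested.

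The paired genes of eIF1A, which helps scanning, differed from the matched wildtype in opposite directions at 4 and 4.5 hpf. Over the 3 stages eif1axa was at 118, 100.3 and 92.1 FPKM in MZnup133, while the 12 other libraries had 14.9 to 32.0 FPKM. It rose by 1.85 ± 0.20 against the matched wildtype (adjusted p = 0.000345). Its copy eif1axb was at 20.9, 0.662 and 0.975 FPKM in MZnup133, while the matched wildtype had 14.4, 20.2 and 67.9 FPKM. Wildtype of the elys set had 49.7, 60.5 and 80.5 FPKM of eif1axb, far from the nup133 set at 3 and 4 hpf. Over 3 stages eif1axb did not pass (-2.77 ± 0.89, adjusted p = 0.0521), and at single stages it fell by 3.86 ± 0.52 at 4 hpf and fell by 4.66 ± 0.52 at 4.5 hpf (adjusted p = 0.0293 and 0.0189). The share of eif1axa in the sum of both was 84.9%, 99.3% and 99.0% in MZnup133 and 24.1% to 66.2% in wildtype. At 4.5 hpf the sum was 93.1 FPKM in MZnup133 and 94.5 and 106 FPKM in wildtype, so the sum lay near that of wildtype there. At 3 hpf it was 139 FPKM against 42.7 and 79.7 FPKM, and at 4 hpf 100.9 FPKM against 49.1 and 92.5 FPKM. Whether reads were split between the copies was not tested.

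The gene of eIF5 was at 59.8, 82.1 and 103 FPKM in MZnup133 and 158, 195 and 208 FPKM in the matched wildtype, a drop at each of the 3 stages. It fell by 1.21 ± 0.10 (adjusted p = 0.000105). Among the remaining calls, eif1ad, a low member with an eIF1A-like domain, was at 0.997, 0.460 and 1.18 FPKM against 3.84, 2.51 and 5.05 FPKM in the matched wildtype (-1.34 ± 0.26, adjusted p = 0.0069). The alpha subunit copy eif2s1b was at 9.57, 13.4 and 19.3 FPKM against 19.1, 31.9 and 31.6 FPKM (-0.93 ± 0.16, adjusted p = 0.00442). Without the 4 hpf libraries eif1ad and eif2s1b were lost (adjusted p = 0.122 and 0.148), as was eif1ad without those of 4.5 hpf (0.0916). With the more abundant copy eif2s1a, the sum of both was 179, 197 and 228 FPKM, against 169.6, 218 and 259.5 FPKM in the matched wildtype. It thus lay below the matched wildtype at 4 and 4.5 hpf, and the sum was not tested.

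On the higher side, eif2b1 was at 10.5, 14.9 and 10.8 FPKM in MZnup133 and 2.74, 3.04 and 7.998 FPKM in the matched wildtype (1.33 ± 0.35, adjusted p = 0.0247). Its partner eif2b3, for the gamma subunit, was at 17.6, 19.9 and 13.3 FPKM against 9.52, 4.92 and 7.76 FPKM (1.12 ± 0.27, adjusted p = 0.0197). The cofactor gene eif4bb was at 33.9, 39.8 and 52.0 FPKM against 22.3, 18.7 and 27.0 FPKM (0.85 ± 0.16, adjusted p = 0.00627). The helicase gene eif4a1b was at 42.0, 62.1 and 55.6 FPKM against 27.4, 30.1 and 31.8 FPKM (0.80 ± 0.13, adjusted p = 0.00329). For all 4 genes the MZnup133 libraries were above the matched wildtype at 3 of 3 stages. Each of the 4 passed in 1 of the 3 fits that left out a stage. Leaving out the 4 hpf libraries ended all 4 calls, with adjusted p from 0.126 to 0.264. Leaving out those of 4.5 hpf ended eif2b3, eif4bb and eif4a1b (0.0674, 0.0693 and 0.0577), and leaving out those of 3 hpf ended eif2b1 (0.108).

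At single stages, 4 members passed in MZnup133 at 3 hpf, 11 at 4 hpf and 11 at 4.5 hpf, against 3.0%, 9.86% and 21.5% of all genes. Split by direction, the members were 1 higher and 3 lower at 3 hpf (1.19% and 1.82% of all genes), 5 and 6 at 4 hpf (4.65% and 5.2%) and 5 and 6 at 4.5 hpf (13.5% and 8.0%). At 3 hpf these were eif1axa, higher, and eif4ebp1, eif4e2 and eif5, lower. These calls were lost when any 1 wildtype library was left out. Such fits had fewer residual degrees of freedom, so a lost call need not mean a smaller difference. In them the 4.5 hpf difference was 1.88 to 1.9 for eif4ebp2 and -5.12 to -3.74 for eif1axb.

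**Figure D5:**
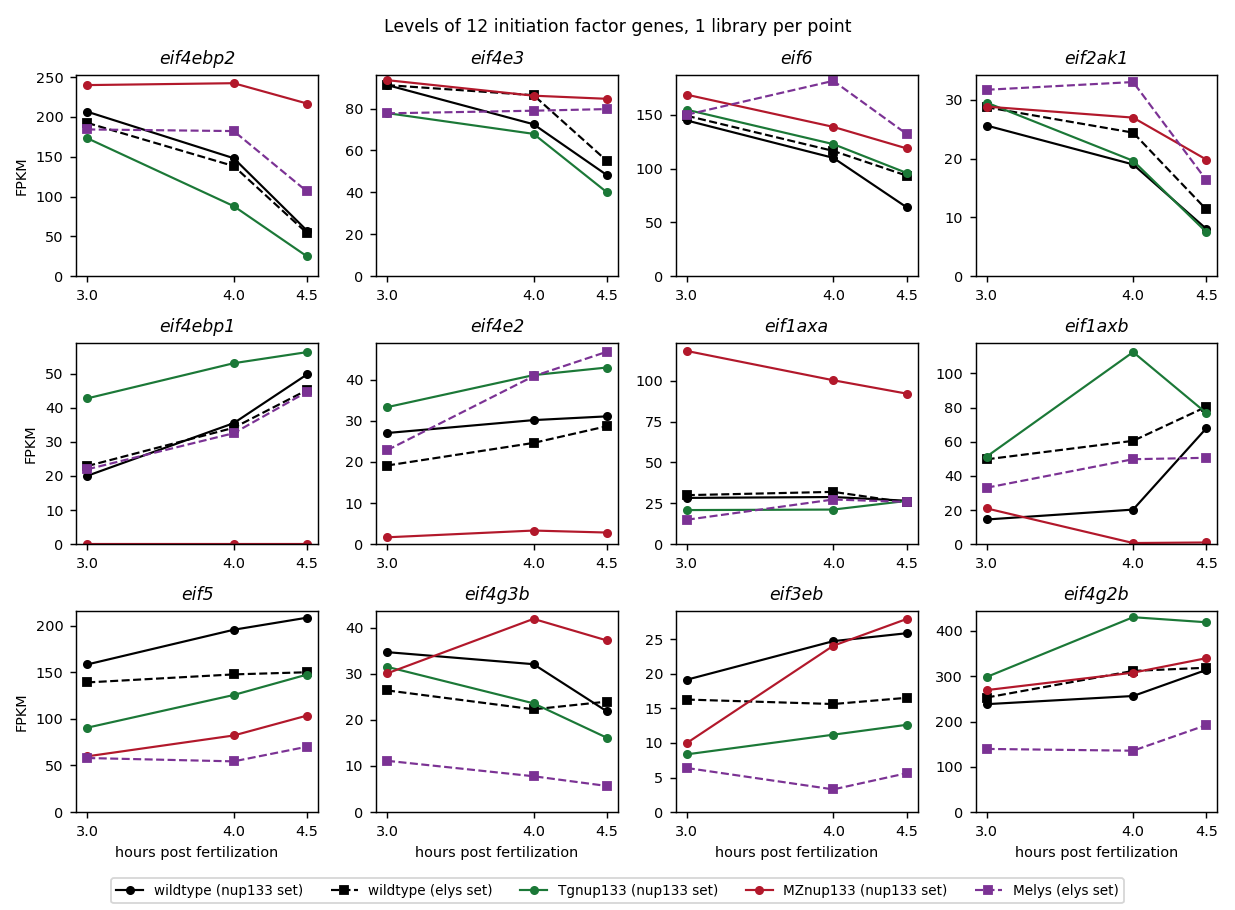
Levels of 12 genes in FPKM against hours post fertilization, with 1 library per point and lines joining libraries of 1 genotype and set. In MZnup133 eif4ebp2 and eif4e3 stay near their 3 hpf level, eif4ebp1 and eif4e2 lie at the bottom and eif1axa lies above all others; in Melys eif4g3b, eif3eb, eif4g2b and eif5 are the lowest series.

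In Melys embryos 2 members were higher and 7 lower than in wildtype of the elys set, against 5.48% and 4.65% of all genes, 10.1% in all. The median was -0.09, against 0.07 for all genes (log2). At 3 of 3 stages 26 members were lower and 14 higher, against 20 and 17 in MZnup133 and 18 and 20 in Tgnup133. The share of all genes with 1 direction at 3 of 3 stages was not counted. The counts were 2 higher and 4 lower under equal FPKM sums and 1 higher and 8 lower under median-ratio scaling. Of the 13493 tested genes, 1353 and 1415 passed under these scalings. Without the 3 hpf libraries 10 members passed, and without those of 4 or of 4.5 hpf 2 did; eif5 and eif4g2b passed in all of these fits. The sums of enveloping layer markers were 0.462, 42.4 and 159 FPKM and those of yolk syncytial layer markers 1.34, 36.2 and 78.3 FPKM, below the wildtype ranges, and their part was not tested.

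Of the 5 eIF4G scaffold genes, 3 were lower in Melys, and eif4g2b alone of these passed in all 3 fits that left out a stage. The gene eif4g3b was at 11.1, 7.78 and 5.68 FPKM in Melys and 26.4, 22.3 and 23.9 FPKM in the matched wildtype, and was below every library of the other genotypes. Its difference was -1.495 ± 0.23 (adjusted p = 0.00396), a call lost without the 4 or the 4.5 hpf libraries (adjusted p = 0.155 and 0.0576). The abundant eif4g2b was at 139, 136 and 192 FPKM against 253, 312 and 319 FPKM and fell by 0.93 ± 0.11 (adjusted p = 0.000936). Its copy eif4g2a was at 234, 240.4 and 250.4 FPKM against 271, 314 and 332 FPKM (-0.34 ± 0.08, adjusted p = 0.0291), and passed in 1 of these 3 fits (adjusted p up to 0.344). The sum over the 5 eIF4G genes was 444, 433 and 511 FPKM in Melys and 608, 706 and 738 FPKM in the matched wildtype.

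The gene of eIF5 was at 58.0, 54.4 and 70.1 FPKM in Melys and 139, 148 and 149.9 FPKM in the matched wildtype. It fell by 1.25 ± 0.10 (adjusted p = 0.000142). Of the eIF3 genes, eif3eb was at 6.38, 3.29 and 5.62 FPKM against 16.3, 15.6 and 16.5 FPKM (-1.53 ± 0.24, adjusted p = 0.00367), while its copy eif3ea was at 42.9, 63.6 and 67.0 FPKM against 37.8, 59.4 and 66.3 FPKM. The d subunit gene eif3d was at 9.77, 24.5 and 39.7 FPKM against 26.4, 35.3 and 49.3 FPKM, with the widest gap at 3 hpf (-0.72 ± 0.19 over 3 stages, adjusted p = 0.0457, lost without any 1 stage). Also lower was eif2s1b (-0.63 ± 0.16, adjusted p = 0.0384). The higher members were eif4bb, at 24.2, 44.1 and 51.4 FPKM against 15.9, 30.8 and 24.2 FPKM (0.71 ± 0.16, adjusted p = 0.022), and eif5a2, at 302, 271 and 304 FPKM against 233, 185 and 235 FPKM (0.43 ± 0.10, adjusted p = 0.0244). The calls of eif5a2 and eif2s1b were lost without any 1 stage (adjusted p = 0.0566 to 0.235 and 0.143 to 0.291), and eif3eb and eif4bb were lost without the 4 or the 4.5 hpf libraries (adjusted p up to 0.169 and 0.216). Under median-ratio scaling eif5a2 was lost as well (adjusted p = 0.159).

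For the eIF4E-binding proteins, eif4ebp2 in Melys was at 184, 182 and 107 FPKM, against 193, 138 and 54.2 FPKM in the matched wildtype. It did not pass over 3 stages (0.43 ± 0.39, adjusted p = 0.509) but did at 4.5 hpf (0.97 ± 0.09, adjusted p = 0.0384). The low wildtype values that made eif4ebp2 a wildtype faller by themselves favour a line above wildtype at that stage. At single stages 1 member passed in Melys at 3 hpf, 3 at 4 hpf and 2 at 4.5 hpf, against 1.15%, 1.7% and 2.97% of all genes. The 3 hpf member, eif3d, was lower (0.408% of all genes higher, 0.741% lower), the 3 at 4 hpf, eif3eb, eif4g2b and eif5, were lower (0.556% and 1.14%), and at 4.5 hpf eif4ebp2 was higher and eif5 lower (1.36% and 1.62%). These calls were lost when any 1 wildtype library was left out, in fits with fewer residual degrees of freedom.

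In Tgnup133 embryos 1 of 64 members passed over 3 stages, against 1.95% of all genes (0.8% higher, 1.15% lower). This was eif5, at 90.5, 126 and 147 FPKM against 158, 195 and 208 FPKM in the matched wildtype, lower at 3 of 3 stages. It fell by 0.64 ± 0.10 (adjusted p = 0.0142), and the call was lost without the libraries of any 1 stage (adjusted p = 0.103 to 0.407). The oocyte cap-binding gene eif4e1b was at 45.1, 57.2 and 67.6 FPKM against 67.7, 76.5 and 113 FPKM (-0.57 ± 0.12, adjusted p = 0.0519). The levels of eif4ebp2 were 173, 88.0 and 24.9 FPKM, below every other library of the same stage, and the difference did not pass (-0.72 ± 0.39, adjusted p = 0.444). At single stages limma called 0 members in Tgnup133, against 0.0148%, 0.0445% and 0.0296% of all genes. An unadjusted p under 0.05 was found for 10, 11 and 8 members at 3, 4 and 4.5 hpf, and the share of all genes at that level was not counted.

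The MZnup133 and Melys effects use different wildtype libraries, and their difference was tested directly. It passed for 6 of 64 members, against 5.27% of all genes (2.76% higher, 2.51% lower). In MZnup133 relative to Melys, eif4ebp1, eif4e2 and eif1ad were lower and eif1axa, eif4g3b and eif4g2b higher. For eif4e2 the difference of effects was -3.65 ± 0.23 and for eif1axa 2.23 ± 0.28 (adjusted p = 3.17e-05 and 0.00157). For eif4g3b, whose matched differences were lower in Melys at 3 of 3 stages, it was 1.80 ± 0.33 (adjusted p = 0.0133). The count of 6 was 2 without the 4 hpf libraries and 3 without those of 4.5 hpf, and eif4ebp1 and eif4e2 passed in each fit that left out a stage. For eif5 the effects were -1.21 ± 0.10 and -1.25 ± 0.10, with a difference of 0.04 ± 0.15 that did not pass (adjusted p = 0.92). MZnup133 and Tgnup133 share their wildtype libraries. Set directly against each other they differed at 22 of 64 members, 8 higher and 14 lower in MZnup133, against 28.6% of all genes (19.0% and 9.62%). Under median-ratio scaling 5 members were higher and 22 lower, and 3892 of the 13493 tested genes passed. The 22 members of the main fit included eif4ebp2 (1.66 ± 0.39, adjusted p = 0.0136) and eif4e1b (0.81 ± 0.12, adjusted p = 0.00228), both chosen after their values were seen. The count of 22 was 3 without the 4 hpf libraries and 5 without those of 4.5 hpf.

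No member passed when the 3 to 4.5 hpf change of a line was compared with that of wildtype. In limma 0 of 64 passed for MZnup133 and 0 of 64 for Melys, against 0.0889% (0.0296% higher, 0.0593% lower) and 0.0% of all genes. At an unadjusted p under 0.05 were 16 and 14 members, and the share of all genes at that level was not counted. The values of eif4ebp2 were 1.68 ± 0.12 and 1.04 ± 0.12 (adjusted p = 0.0689 and 0.177).

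Neighbouring parts of the translation pathway were read from lists of named genes, to be set against the share of all genes that rose (14.1%) and fell (22.8%) in wildtype from 3 to 4.5 hpf and that were higher (13.7%) and lower (8.32%) in MZnup133. Of 10 tested elongation factor genes, 2 rose and 1 fell in wildtype, and 5 were lower in MZnup133 and none higher. The count of 5 was 1 without the 4 hpf libraries and 2 without those of 4.5 hpf. The gene eef2b, for the translocation factor eEF2, fell by 0.87 ± 0.07 in MZnup133 (adjusted p = 4.95e-05) and passed in all 3 fits that left out a stage. In Melys it fell by 0.61 ± 0.07 (adjusted p = 0.000553) and passed in 2 of 3. The gene eef1a1l1, for the factor that brings aminoacyl-tRNA, fell by 0.95 ± 0.16 in MZnup133 (adjusted p = 0.00401), and eef2a.1, an eEF2 gene copy, differed by -2.42 ± 0.45 (adjusted p = 0.00593). Both passed in 1 of 3. In MZnup133 eef2a.1 was listed at 0, 0 and 0.337 FPKM, against 4.3, 2.46 and 10.2 FPKM in the matched wildtype. The size of its difference therefore rests on the 1 added to FPKM.

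Of 7 termination and recycling genes 5 rose and 1 fell in wildtype, and at most 1 rose when any 1 wildtype library was left out. The fall was that of hbs1l, a ribosome rescue gene, by 1.91 ± 0.14 (adjusted p = 0.00282), which passed in all 6 such fits. In 19 tRNA charging genes 4 rose and 1 fell in wildtype. In MZnup133 3 were lower and none higher, and the count of 3 was 0 without the 4 or the 4.5 hpf libraries. Of 33 genes of poly(A) tail and mRNA binding regulators, 8 rose and 8 fell in wildtype; with 1 library left out, 1 to 5 rose and 5 to 7 fell, and 1 rose when the nup133 set lacked its 3 or its 4.5 hpf library. The genes cpeb1b, lsm14b and ddx6, which encode partners of stored oocyte mRNA, fell, with differences of -2.80 ± 0.23, -2.48 ± 0.09 and -1.98 ± 0.13 (adjusted p = 0.00353, 0.00104 and 0.00248), and passed in all 6 fits.

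Of 25 TOR and MAP kinase genes 3 rose and 8 fell, with 1 to 2 and 3 to 6 in the 6 fits. Among the latter were mknk2a and mknk1, whose kinases phosphorylate eIF4E, with differences of -3.12 ± 0.14 and -2.19 ± 0.11 (adjusted p = 0.00153 and 0.00178), and both passed in all 6. Of 15 integrated stress response genes 3 rose and 4 fell in wildtype. Among them atf4a, a transcription factor of this response, rose by 3.47 ± 0.20 (adjusted p = 0.00206), while ddit4 and chac1 of the same list fell. Each of these genes passed in all 6 fits, and the median difference of the list was -0.29. Of 12 genes of ribosome dormancy and reinitiation 4 rose, and 1 to 3 did with 1 library left out. One of the 2 identifiers named dap1b fell by 2.04 ± 0.14 in MZnup133 (adjusted p = 1.94e-05) and passed in all 3 fits that left out a stage. The other identifier did not pass in MZnup133. In Melys, tsc1a, a brake on TOR, rose by 2.30 ± 0.23 (adjusted p = 0.00035) and also passed in all 3. In MZnup133, 4 TOR and MAP kinase genes were higher and 1 lower, and 3 and 2 of the integrated stress response. Of the poly(A) tail and mRNA binding regulators 4 were higher and 5 lower. The counts were 1 and 3 for ribosome dormancy and reinitiation, and 0 and 0 for termination and recycling. Without the 4 hpf libraries all were 0 except for 1 lower gene of ribosome dormancy and reinitiation.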

How the data were processed

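Messenger RNA was measured as FPKM per gene in 15 libraries, values computed and deposited by the authors; the build GRCz11 and the tools STAR 2.5.3a, Trim Galore and Cufflinks 2.2.1 are named, per the submitters' processing notes. Tool order, options, annotation and strand setting: not given in the sources used here. Of 23800 lines, 74 repeats were dropped. A wildtype column was put in the control set whose mutant columns begin with the same number. Depth in reads is unknown because only FPKM were used; the value of 1 fragment, read from values under 3 FPKM, put relative depth at 0.871 to 1.57 of the 3 hpf wildtype library of the nup133 set.

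Tests used limma 3.58.1 in R 4.3.3 on log2(FPKM + 1), which understates the change of low genes. They were two-sided with a variance trend, Benjamini-Hochberg adjustment over 13493 genes and a threshold of 0.05. Comparisons of stages and of lines at single stages came from a fit of 12 genotype and stage means plus a control set term, with 2 residual degrees of freedom from the wildtype pairs; each lone library was assumed to vary like wildtype. Comparisons over 3 stages used a level per control set and stage and 1 effect per line, with 6 residual degrees of freedom. Changes of a line's effect between stages enter the residual spread of this fit, which all lines share. Tested on simulated data with changes of 1 and 2 (log2) in 100 genes each of 13493, the fits recovered 29% and 77% for wildtype 3 to 4.5 hpf and 33% and 82% for MZnup133 over 3 stages. There few genes changed and the line effect was equal at all stages, while limma called 37.0% and 22.0% of the real genes. These rates therefore need not hold for the real fits.

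The members, gene lists and tests were chosen with earlier results of these data known. Named were all eif4e, eif4ebp, eif4enif and eif5a genes, the 5 highest and 5 lowest differences past the threshold in each main comparison, the most abundant gene of each role, and up to 4 genes per pathway list and comparison; others named with values were chosen after these were seen. All 64 identifiers were found in the reference gene table. Alternatives were a pseudocount of 0.1, no filter on low values, median-ratio scaling, equal FPKM sums, no control set term, and leaving out libraries.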

Additional observations from a re-analysis of the deposited data

Results flagged for a closer look

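For 6 members the MZnup133 effect and the Melys effect, each against its own wildtype libraries over 3 stages, differed by limma's direct test of the difference. The fitted differences of effects (MZnup133 minus Melys, log2(FPKM + 1) scale) were -5.04 for eif4ebp1, -3.65 for eif4e2, -1.66 for eif1ad, 1.11 for eif4g2b, 1.80 for eif4g3b and 2.23 for eif1axa. The value of eif4ebp1 rests on a gene listed at 0 in MZnup133, depends on the pseudocount and is no bound. Adjusted p were 3.17e-05 for eif4ebp1 and eif4e2, 0.0294 for eif1ad, 0.00326 for eif4g2b, 0.0133 for eif4g3b and 0.00157 for eif1axa. Both eif4ebp1 and eif4e2 passed without the libraries of any 1 stage, eif1axa in 2 of these 3 fits (adjusted p up to 0.118), eif4g3b and eif4g2b in 1 each (up to 0.297 and 0.106), and eif1ad in none (0.0922 to 0.336).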

How the results depend on the processing

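Calls of members named by rule were checked for wildtype 3 to 4.5 hpf, the 3 lines over 3 stages and MZnup133 minus Melys. There no tested alternative turned the direction of a call: of 409 values, 265 kept their side of the threshold and 144 lost it. Calls at single stages, of the shorter steps, of MZnup133 minus Tgnup133 and of the other pathway genes were not in this check. Counts of members past the threshold moved by over 1.5 times as follows. Without the filter on low values they were 13 (wildtype 3 to 4.5 hpf), 0 (3 to 4 hpf), 0 (4 to 4.5 hpf), 4 and 4 (MZnup133 at 4 and 4.5 hpf), 0 and 1 (Melys at 4 and 4.5 hpf), 1 and 1 (Tgnup133 at 4 and 4.5 hpf), and 1 and 2 (stage change in MZnup133 and Melys against wildtype). With a pseudocount of 0.1 they were 0 (4 to 4.5 hpf), 7 (MZnup133 at 4 hpf), 1 and 1 (Melys at 4 and 4.5 hpf). Under median-ratio scaling they were 6 (4 to 4.5 hpf), 3 (Tgnup133 over 3 stages), 7 and 18 (MZnup133 at 4 and 4.5 hpf) and 5 (Melys at 4.5 hpf). Under equal FPKM sums they were 2 (Tgnup133 over 3 stages) and 2 (Melys at 3 hpf). Without a control set term they were 0 (3 to 4 hpf), 1 (4 to 4.5 hpf), 7 and 7 (MZnup133 at 4 and 4.5 hpf), 1 (MZnup133 stage change), 0 and 1 (Melys at 3 and 4 hpf). Leaving out 1 wildtype library gave 5 to 24 for wildtype 3 to 4.5 hpf and 0 for both shorter steps and for MZnup133 and Melys at each stage. Leaving out the libraries of 1 stage gave 4 to 22 for MZnup133, 2 to 10 for Melys, 0 for Tgnup133, 2 to 7 for MZnup133 minus Melys and 3 to 29 for MZnup133 minus Tgnup133. The cause of these moves was not tested. Fits that left out libraries also had fewer residual degrees of freedom, so a lost call need not mean a smaller difference. The control set term pairs wildtype libraries of 1 set across stages, so the counts without it are those of an unpaired fit. With 2 residual degrees of freedom, small changes of single genes could not be told from the spread between libraries.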
